A study of Saccharomyces cerevisiae with 4 samples.

Results

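The G1/S cell cycle genes of budding yeast considered here are 36 genes whose transcripts peak as a cell leaves G1 and starts to copy its DNA, or whose products act in that step. They comprise G1 and S-phase cyclins, transcription factors, and enzymes of nucleotide synthesis, DNA replication, cohesion, checkpoint signalling and mismatch repair. They were chosen by name from the platform annotation, each had a single probe, and they are 36 of 5547 named genes on the array. The study asked how loss of Snf2, or of its SnAC domain alone, changes messenger RNA levels. Snf2 is the ATPase of SWI/SNF, a complex that slides and evicts nucleosomes.

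Each of the 4 groups held 1 sample, measured in 2 colours against a wild type. The snf2 null carries the Δsnf2 allele in strain BY4741 and was hybridised against wild-type BY4741, a standard laboratory strain. The SnAC deletion is strain PSY3, with the SnAc domain of Snf2 removed, and was hybridised against strain PSY2, a wild type that carries Snf2-2FLAG, an epitope-tagged Snf2. BY4741 and PSY2 were each also hybridised against themselves. All strains grew at 25 °C in YPD, which is rich in glucose, and were harvested at an optical density of 0.8. The cultures are not described as synchronised, and the number of clones per strain is not stated in the sources used here. With 1 sample in each group, no value has a replicate error and nothing was tested, so the 2 wild-type arrays are the measure of how far ratios stray when both channels hold the same strain. The labels do not say whether those channels held separate cultures, so this spread may be technical alone.

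In late G1 the cyclin Cln3, bound to the kinase Cdc28, relieves the repressor Whi5 from SBF, the factor made of Swi4 and Swi6. SBF and its relative MBF, made of Mbp1 and Swi6, then switch on a large set of genes. SBF targets include the cyclins CLN1, CLN2, PCL1 and PCL2 and cell wall genes. MBF targets include the S-phase cyclins CLB5 and CLB6 and much of the machinery of DNA synthesis. SWI/SNF is best known in this pathway for its recruitment to HO, an SBF target that starts mating type switching.

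All values below are log2 ratios of the named strain over its wild type, minus the median of all features of that array. A feature is a gene with its probes averaged, or a probe without a gene name. Centring removed -0.13 from the BY4741 array, 0.10 from Snf2-2FLAG, 0.003 from the null and -0.39 from the SnAC deletion, so centring matters most for the last. Base 2 is assumed, and folds hold only if it is right. From 5669 to 6031 features had a value on each array. SNF2 itself read -2.14 in the snf2 null and -0.19 on the BY4741 array, and it lacked a value on the other 2 arrays, which leaves the domain deletion unchecked. The arrays give ratios and no signal levels, and the mating type and identity of the strains were not checked against other marker genes.

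On centred values few G1/S genes passed a fixed fold in either mutant, and their counts lay near the shares over all features. Such counts do not set the members apart. None of the 36 measured in the null was 2-fold higher or lower, where 2.85% of all features were. None of the 35 measured in the SnAC deletion was either, against 2.05% of features. At 1.5-fold, 1 member was higher in each mutant, the cyclin gene PCL2, and 0 were lower. The share of all features 1.5-fold higher was 4.28% in the snf2 null and 3.12% in the SnAC deletion, and 3.27% and 2.56% were 1.5-fold lower. PCL2 is below 1.5-fold in the SnAC deletion as deposited, at 0.37. On those values 0 of 35 members were 1.5-fold higher, against 0.951% of features, and 3 were lower, against 16.7%. In a culture of mixed phases, fewer cells in late G1 and less RNA per cell cannot be told apart.

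Most members lay slightly on the high side of the mutant arrays. In the null 29 of 36 were above the array median, where 49.9% of all features were, and the median member read 0.11. In the SnAC deletion 29 of 35 were above, also against 49.9%, and the median member read 0.08. That direction holds for the SnAC deletion only after centring, since 26 of its 35 members change sign as deposited and their median becomes -0.31. The members were also tighter than the array as a whole. The middle 50% of members spanned 0.14 in the snf2 null and 0.18 in the SnAC deletion, against 0.35 and 0.28 for all features. They were tighter on the wild-type arrays as well, at 0.15 against 0.19 for BY4741 and 0.25 against 0.30 for Snf2-2FLAG.

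**Figure D1:**
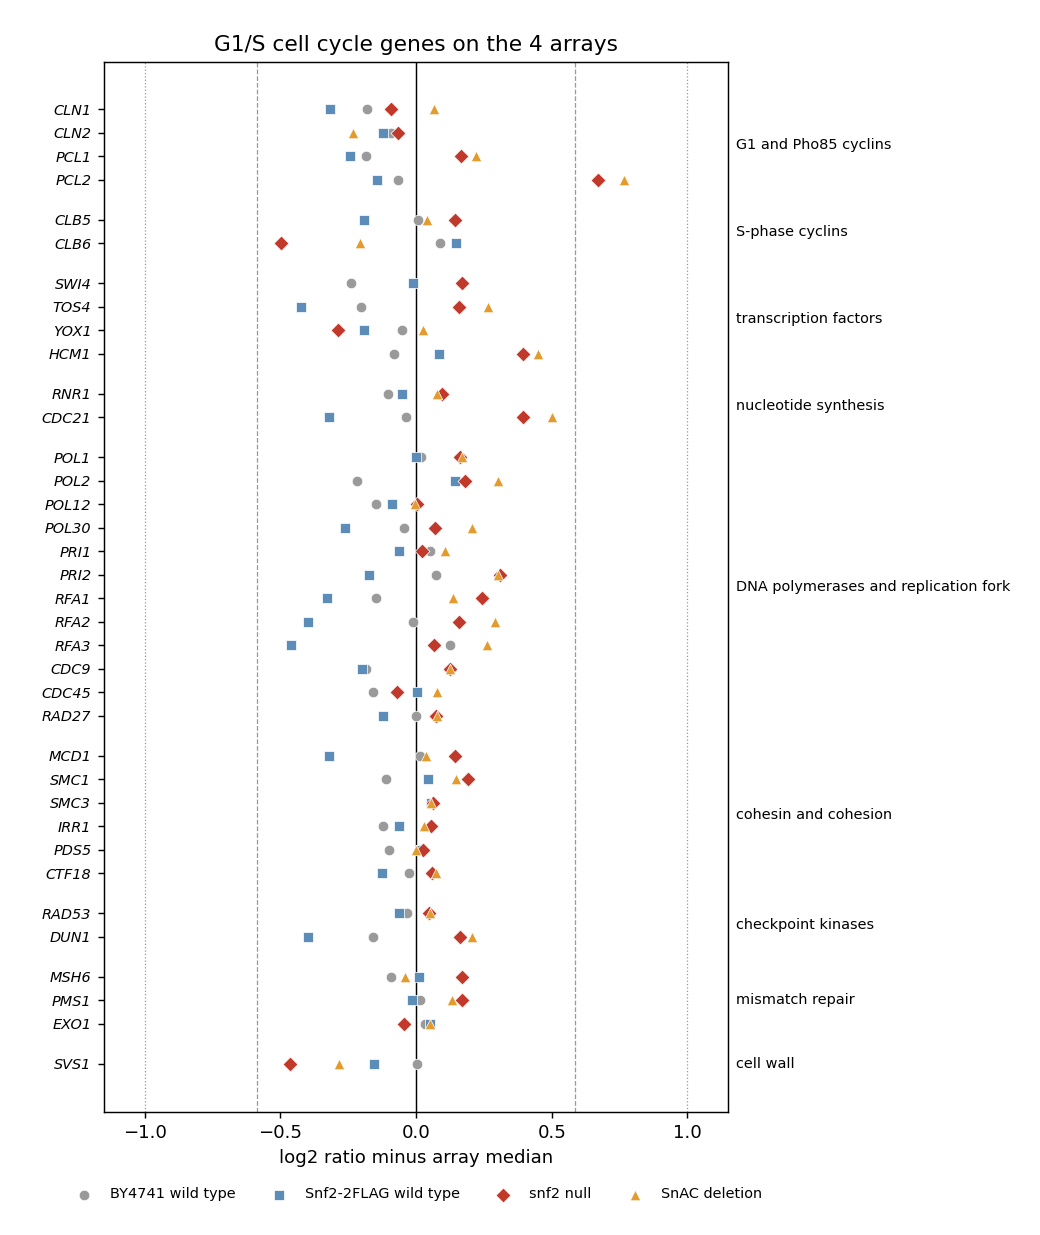
Centred log2 ratio (x axis) of each of the 36 G1/S genes (rows, grouped by role) on the 4 arrays, 1 point per gene and array. Dashed lines mark 1.5-fold and dotted lines 2-fold; PCL2 is the only gene past a dashed line, at 0.67 in the snf2 null and 0.77 in the SnAC deletion, and SWI4 and SMC3 lack 1 point each.

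The cyclins held both the highest and the lowest member of the null. PCL2 (YDL127W), which partners the kinase Pho85 in late G1, read -0.07 on the BY4741 array, -0.15 on that of Snf2-2FLAG, 0.67 in the snf2 null and 0.77 in the SnAC deletion. Both mutants were thus high and both wild types slightly below the median, a 1.59-fold and a 1.70-fold ratio in the mutants. PCL1, its close relative with the same kinase partner, read -0.18, -0.25, 0.17 and 0.22 in the same order. PCL1 shared the order of the arrays but with a smaller gap, so that PCL2 exceeded it by 0.50 in the snf2 null and by 0.55 in the SnAC deletion. Cross-hybridisation between such related genes was not tested.

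CLN1 and CLN2, the G1 cyclins that drive bud emergence with Cdc28, stayed near the median. CLN1 read -0.18 on the BY4741 array, -0.32 on that of Snf2-2FLAG, -0.09 in the snf2 null and 0.07 in the SnAC deletion. CLN2 read -0.09, -0.12, -0.07 and -0.23. Every mutant value of these genes was smaller in size than the -0.32 that CLN1 read in a comparison of the Snf2-2FLAG strain with itself.

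The S-phase cyclins CLB5 and CLB6, which fire replication origins with Cdc28, parted most in the snf2 null. CLB6 (YGR109C) read 0.09 on the BY4741 array and 0.15 on that of Snf2-2FLAG, but -0.50 in the snf2 null and -0.21 in the SnAC deletion. It was the lowest of all members in the null, 1.41-fold lower, while both wild types lay above the median. CLB5 read 0.01, -0.19, 0.14 and 0.04 on the same arrays. The gap between them, CLB6 minus CLB5, was -0.64 in the snf2 null and -0.25 in the SnAC deletion, against 0.08 and 0.34 on the wild-type arrays.

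The transcription factors among the members differed little from wild type, with HCM1 the furthest. SWI4, the DNA-binding part of SBF, read -0.24 on the BY4741 array, -0.01 on that of Snf2-2FLAG and 0.17 in the null, and had no value in the SnAC deletion. HCM1 (YCR065W), a forkhead factor for S-phase genes, read -0.08, 0.08, 0.40 and 0.45 in the order BY4741, Snf2-2FLAG, null and SnAC deletion. Both mutants were above both wild types for HCM1. TOS4, a G1/S protein with a forkhead-associated domain, read -0.20, -0.43, 0.16 and 0.26 in that order, and so was higher in both mutants than on either wild-type array. With the Snf2-2FLAG array subtracted, TOS4 was further from 0 in the SnAC deletion than HCM1, at 0.69 against 0.37. YOX1, a homeodomain repressor of M/G1 genes, read -0.05, -0.19, -0.29 and 0.03, lowest in the null, and the difference of -0.32 between null and SnAC deletion was the widest of any member. YHP1, the related repressor, is no member and read 0.17 in the snf2 null and 0.31 in the SnAC deletion.

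Upstream of these genes, CLN3 (YAL040C) was far above its wild-type level. The gene for the cyclin that starts the G1/S programme read -0.12 on the BY4741 array, 0.27 on that of Snf2-2FLAG, 1.12 in the snf2 null and 1.36 in the SnAC deletion. It was therefore 2.18-fold and 2.56-fold above wild type in the mutants, well outside both wild-type values. As deposited, CLN3 read 0.965 in the SnAC deletion, below 2-fold. FAR1 (YJL157C), an inhibitor of the G1 cyclin kinase, read -0.03, 0.01, -0.93 and -1.05, which is 1.91-fold and 2.08-fold lower in the mutants. CLN3 and FAR1 are the only genes past 1.5-fold among the 16 G1/S regulators measured in each mutant. On those arrays 4.28% and 3.12% of all features were 1.5-fold higher and 3.27% and 2.56% lower. The list of 17 had medians of 0.09 in the snf2 null and 0.07 in the SnAC deletion. The other parts of the switch were near the median. WHI5 read 0.25 and 0.21, SWI6 0.01 and -0.08, the inhibitor gene SIC1 0.08 and -0.09, and CDC28 0.19 and 0.18 in the snf2 null and the SnAC deletion. WHI5 read -0.32 on the BY4741 array and SIC1 -0.335 on that of Snf2-2FLAG, each further from the median than in either mutant. MBP1 read 0.11 in the snf2 null and had no value in the SnAC deletion. WHI5, SWI6, SIC1, CDC28 and MBP1 were named for their place in the pathway, with their values known.

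**Figure D2:**
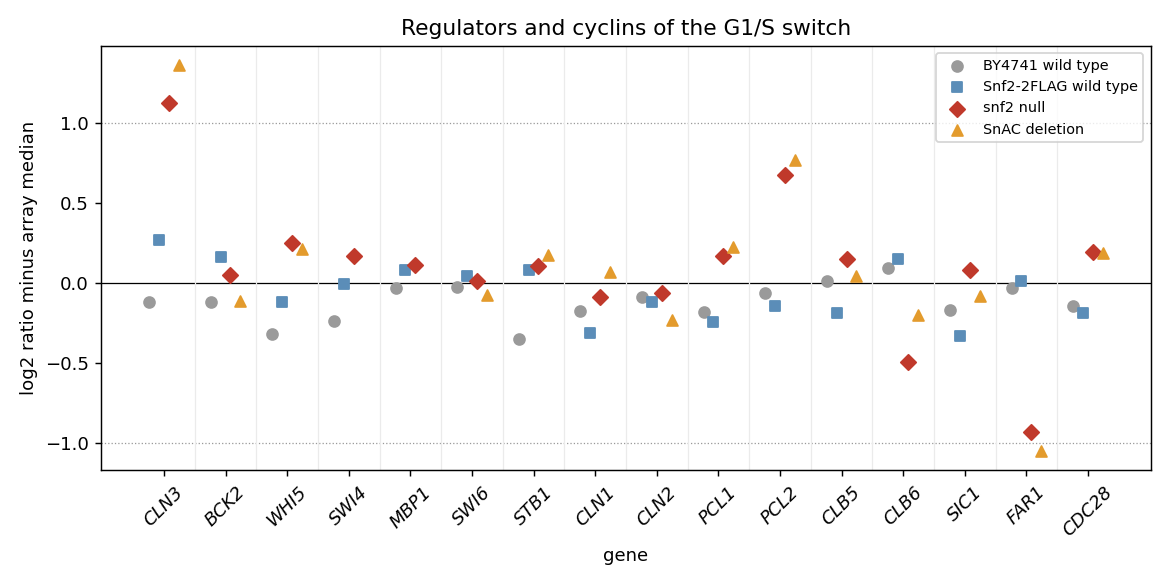
Centred log2 ratio (y axis) of regulators and cyclins of the G1/S switch (x axis), 1 point per gene and array, with dotted lines at 2-fold. CLN3 lies at 1.12 and 1.36 and FAR1 at -0.93 and -1.05 in the mutants, while SWI4, MBP1, SWI6, CLN1 and CLN2 lie near 0.

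Both members for nucleotide synthesis lay above the median in the mutants, CDC21 further than RNR1. CDC21 (YOR074C), the thymidylate synthase, read -0.04 on the BY4741 array, -0.32 on that of Snf2-2FLAG, 0.40 in the snf2 null and 0.50 in the SnAC deletion. Both mutants were higher than both wild types, and their centred ratios amount to 1.32-fold and 1.42-fold. With the own wild-type array subtracted, CDC21 read 0.43 in the snf2 null and 0.82 in the SnAC deletion. RNR1, the large subunit of ribonucleotide reductase, read -0.10, -0.05, 0.09 and 0.08 in the same order. RNR1 stayed within 0.20 of its wild-type array in both mutants. Of 10 further genes for deoxynucleotides measured, 0 passed 1.5-fold in either mutant. Over all features 4.28% and 3.12% were 1.5-fold higher in the null and the SnAC deletion, and 3.27% and 2.56% lower. The 10 genes had medians of -0.07 in the snf2 null and 0.11 in the SnAC deletion. Their extremes in the null were the nucleoside diphosphate kinase gene YNK1 at 0.49 and the dUTPase gene DUT1 at -0.39. RNR2, a small subunit of the reductase, was the lowest of that list in the SnAC deletion at -0.46.

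The 12 genes of DNA polymerases and the replication fork lay in a narrow band. They ran from -0.07 to 0.31 in the snf2 null and from -0.002 to 0.30 in the SnAC deletion. In each mutant 11 of 12 were above the array median, where 49.9% of all features were. POL1, the catalytic subunit of DNA polymerase alpha, read 0.02 on the BY4741 array, -0.001 on that of Snf2-2FLAG, 0.16 in the snf2 null and 0.17 in the SnAC deletion. Its partner POL12 read -0.15, -0.09, 0.002 and -0.002, and the small primase subunit PRI1 read 0.05, -0.06, 0.02 and 0.11. PRI2, the large primase subunit, was highest of this role in both mutants at 0.31 and 0.30, and read 0.07 and -0.17 on the wild-type arrays. The 4 subunits of this complex ran from 0.002 to 0.31 in the snf2 null and from -0.002 to 0.30 in the SnAC deletion. On the wild-type arrays they also spread, from -0.15 to 0.07 for BY4741 and from -0.17 to -0.001 for Snf2-2FLAG.

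The genes of replication protein A, which coats single-stranded DNA, were mildly high in the SnAC deletion and low on its wild-type array. RFA1, RFA2 and RFA3 read 0.14, 0.29 and 0.26 in the SnAC deletion and -0.33, -0.40 and -0.46 on the Snf2-2FLAG array. In the null they read 0.24, 0.16 and 0.07, and -0.15, -0.01 and 0.13 on the BY4741 array. RFA3 was thus lower in the null than on its wild-type array, and higher in the SnAC deletion than on its own. The sliding clamp gene POL30 read -0.04 on the BY4741 array, -0.26 on that of Snf2-2FLAG, 0.07 in the snf2 null and 0.21 in the SnAC deletion.

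POL2, the catalytic subunit of DNA polymerase epsilon, read -0.22 and 0.15 on the BY4741 and Snf2-2FLAG arrays, 0.18 in the snf2 null and 0.30 in the SnAC deletion. CDC45, a part of the replicative helicase, read -0.16, 0.01, -0.07 and 0.08 in that order. Its value in the null lay between those of the wild types. The DNA ligase gene CDC9 read -0.18, -0.20, 0.13 and 0.12, and RAD27, the flap nuclease, read 0.00, -0.12, 0.08 and 0.08. CDC9 and RAD27 were above the wild-type arrays in both mutants, and the mutants differed by less than 0.01 for each.

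The other replication genes measured, 43 that are no members, were centred on the array, with medians of 0.00 in the snf2 null and 0.02 in the SnAC deletion. CDC6, which loads the helicase and is transcribed at M/G1, was the highest in both, at 0.62 and 0.64. It was the only gene of that list at least 1.5-fold higher, where 4.28% and 3.12% of all features were. As deposited, CDC6 read 0.25 in the SnAC deletion, below 1.5-fold. The nuclease and helicase gene DNA2 was the lowest in the null at -0.60, also past 1.5-fold, and read -0.31 on the BY4741 array and -0.21 in the SnAC deletion.

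Genes for cohesin, the ring that holds sister chromatids together, were the flattest of the larger roles. The 6 members of this role ran from 0.03 to 0.19 in the snf2 null and from 0.00 to 0.15 in the SnAC deletion. MCD1, the ring subunit that is cut at anaphase, read 0.01 on the BY4741 array, -0.32 on that of Snf2-2FLAG, 0.14 in the snf2 null and 0.04 in the SnAC deletion. SMC1 and SMC3 encode the ATPase arms of the ring. SMC1 read -0.11, 0.05, 0.19 and 0.15, and SMC3, which had no value for BY4741, read 0.06 on each of the other arrays. The ring's partner IRR1 read -0.12, -0.06, 0.05 and 0.03. The cohesin regulator PDS5 read -0.10, 0.02, 0.03 and 0.00, and CTF18, part of a clamp loader, read -0.02, -0.13, 0.06 and 0.08. No member of this role lay as far from the median in a mutant as MCD1 did in the comparison of the Snf2-2FLAG strain with itself. Further cohesion genes, 10 measured in the snf2 null and 9 in the SnAC deletion, had medians of 0.03 and 0.09. Among them 0 passed 1.5-fold, where 4.28% and 3.12% of all features were higher and 3.27% and 2.56% lower.

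The checkpoint kinase gene RAD53 read -0.03 on the BY4741 array, -0.06 on that of Snf2-2FLAG, 0.05 in the snf2 null and 0.05 in the SnAC deletion. DUN1, the kinase that acts below Rad53 to raise deoxynucleotide supply, read -0.16, -0.40, 0.16 and 0.21 in the same order. Both mutants exceeded both wild types for DUN1 and, by little, for RAD53. Among the mismatch repair genes, MSH6, which recognises mispaired bases, read -0.09, 0.01, 0.17 and -0.04. PMS1, which acts in the step after recognition, read 0.01, -0.02, 0.17 and 0.13, and the nuclease gene EXO1 read 0.04, 0.05, -0.04 and 0.05. MSH6 was higher in the null than in the SnAC deletion by 0.21, the largest difference in that direction among the members. Of further checkpoint and repair genes, 15 were measured in the snf2 null and 14 in the SnAC deletion. Their medians were 0.10 and 0.02. Here too 0 passed 1.5-fold, where 4.28% and 3.12% of all features were higher and 3.27% and 2.56% lower.

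SVS1 (YPL163C), an SBF target for a cell wall and vacuolar protein, lay at the low end with CLB6. It read 0.002 on the BY4741 array, -0.15 on that of Snf2-2FLAG, -0.47 in the snf2 null and -0.28 in the SnAC deletion. It was the lowest member in the SnAC deletion, 1.22-fold lower, and 1.38-fold lower in the null. Both mutants were below both wild types.

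A finer measure than a fixed fold is the spread of the wild-type array of the same background. Its central 95% ran from -0.32 to 0.31 for BY4741 and from -0.45 to 0.51 for Snf2-2FLAG. In the null PCL2, CDC21, HCM1 and PRI2 lay above that range and CLB6 and SVS1 below it, 6 of 36 members against 26.3% of all features. PRI2 passed only narrowly, at 0.309 against a bound of 0.305. In the SnAC deletion only PCL2 lay outside, 1 of 35 against 7.71%. On the BY4741 array itself 0 of 35 members lay outside, against 5.03% of features. On the Snf2-2FLAG array 1 of 36 did, RFA3, against 5.01%.

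The members were also displaced on the wild-type arrays, there to the low side. Though both channels held the same strain, the median member read -0.07 on the BY4741 array and -0.12 on that of Snf2-2FLAG, with 10 of 35 and 9 of 36 above the array median, where 49.8% of features were on each. These medians were similar in size to those in the mutants and opposite in sign. What displaced the members on any array was not tested. Of 34 members with a value on all arrays, 13 were below the median on both wild types and above it in both mutants, 38.2%, against 16.9% of 5134 features. They include CDC21, PCL1, PCL2, CDC9, DUN1, RFA1, RFA2 and TOS4. Whether a technical feature of the probes moves with this pattern was not tested.

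With the centred wild-type array subtracted, the median member read 0.15 in the snf2 null and 0.20 in the SnAC deletion, where the median feature read 0.004 and 0.003. On this scale 1 member was 1.5-fold higher in the null, PCL2, and 1 lower, CLB6, of 35, against 6.91% and 6.42% of features. In the SnAC deletion 6 of 35 were 1.5-fold higher, against 7.59% of features, and 0 were lower, against 6.80%. These 6 were PCL2 at 0.91, CDC21 at 0.82, RFA3 at 0.72, RFA2 and TOS4 at 0.69 each, and DUN1 at 0.60. PCL2 is the only one of them past 1.5-fold before subtraction. The other 5 read from -0.46 to -0.32 on the Snf2-2FLAG array, and that value enters their difference.

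The mutants, which share no control sample, were about as alike over the members as over all features. Across 35 members Pearson's r between the arrays was 0.85 and Spearman's rho was 0.75, and r was 0.80 without PCL2. Over 5790 features r was 0.88 and rho was 0.77. These coefficients only describe 1 array per mutant. The value was above the median in both mutants for 25 members, against 39.3% of features. It was below in both for 3, CLN2, CLB6 and SVS1, against 39.1%. It had opposite signs for 6, CLN1, POL12, YOX1, CDC45, MSH6 and EXO1, and PDS5 lay at the median of the SnAC deletion. So 28 of 35 members lay on the same side in both, against 78.3% of features. The median difference, null minus SnAC deletion, was -0.02. Single differences ran from -0.32 for YOX1 to 0.21 for MSH6, all inside the central 95% for features, which was -0.37 to 0.39. After YOX1, CLB6 differed most, at -0.29.

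**Figure D3:**
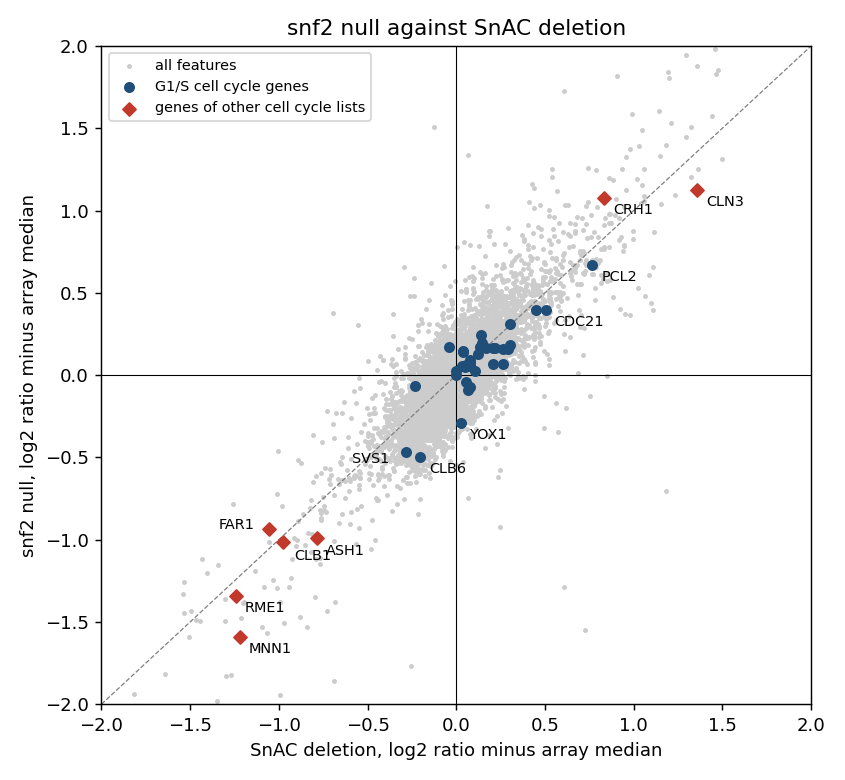
Centred log2 ratio in the SnAC deletion (x axis) and in the snf2 null (y axis) for all features (grey), the G1/S genes (blue circles) and 7 genes of other cell cycle lists (red diamonds); 49 of 5790 features lie beyond the axes. The G1/S genes sit around the centre, with PCL2 at the high end and SVS1 and CLB6 at the low end, while CLN3, FAR1, RME1 and MNN1 lie far out along the diagonal.

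M/G1 and histone genes lay further from the median than the G1/S genes. Of 18 M/G1 genes, transcribed just before the G1/S set, 8 were 1.5-fold lower in the snf2 null and 6 in the SnAC deletion, and 2 were higher in each. Of all features 3.27% and 2.56% were 1.5-fold lower, and 4.28% and 3.12% were higher. The medians of the M/G1 genes were -0.30 and -0.24, against -0.08 and 0.18 on the BY4741 and Snf2-2FLAG arrays. RME1, a repressor of meiosis that also acts on CLN2, read -0.10, -0.38, -1.34 and -1.24 in the order BY4741, Snf2-2FLAG, null and SnAC deletion. ASH1, the daughter-cell repressor of HO, read -0.26, -0.05, -0.99 and -0.79. The 2 higher genes were CLN3 and CDC6. CLN3, FAR1 and SIC1 are on the list of G1/S regulators as well, and CDC6 is on that of other replication genes. SWI5, the gene of a factor that drives many M/G1 genes and RME1 and ASH1 among them, read -0.10 in the snf2 null and -0.18 in the SnAC deletion, and was named after its values were seen.

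Histone genes, which are transcribed in S phase, were shifted further upward than the members. The median of their 10 genes was 0.31 in the snf2 null and 0.59 in the SnAC deletion. Of these genes 2 and 5 were at least 1.5-fold higher and 0 lower, where 4.28% and 3.12% of all features were higher. As deposited, the histone median in the SnAC deletion was 0.19, and the highest value, HHF1 at 0.45, was below 1.5-fold. The list lay at -0.04 on the BY4741 array and at -0.28 on the Snf2-2FLAG array, the same order of signs as for the members. HHT2, a histone H3 gene, read 0.69 in the snf2 null and 0.77 in the SnAC deletion, and HHF1, a histone H4 gene, 0.57 and 0.85.

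G2/M genes were centred on the array, with medians of 0.02 and -0.01 over 17 genes. The mitotic cyclin gene CLB1 was the exception at -1.01 in the snf2 null and -0.97 in the SnAC deletion, against -0.13 and -0.01 on the wild-type arrays. Its relative CLB2 read 0.22 and 0.25.

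Further genes described as SBF or MBF targets, 23 of 24 listed with a value in each mutant, had medians of 0.09 in the snf2 null and 0.15 in the SnAC deletion. On the wild-type arrays the medians were -0.05 and -0.16, so the list had the signs of the members throughout. It held stronger single values. MNN1, a mannosyltransferase of the Golgi, read 0.07 on the BY4741 array, 0.08 on that of Snf2-2FLAG, -1.59 in the snf2 null and -1.22 in the SnAC deletion, or 3.01-fold and 2.33-fold lower. CRH1, a cell wall transglycosylase, read -0.03, -0.08, 1.08 and 0.84. TOS3, a kinase gene, was the only other one past 1.5-fold in a mutant, at 0.61 in the SnAC deletion, and read 0.33 in the null. As deposited, TOS3 read 0.22 and CRH1 0.44 in the SnAC deletion, both below 1.5-fold. GIN4, a kinase gene of the bud neck, was past 1.5-fold on the Snf2-2FLAG self-hybridisation, at 0.81, with no difference in genotype. It read -0.17 in the snf2 null and -0.38 in the SnAC deletion, and was named after its values were seen. HO is not analysed here.

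**Figure D4:**
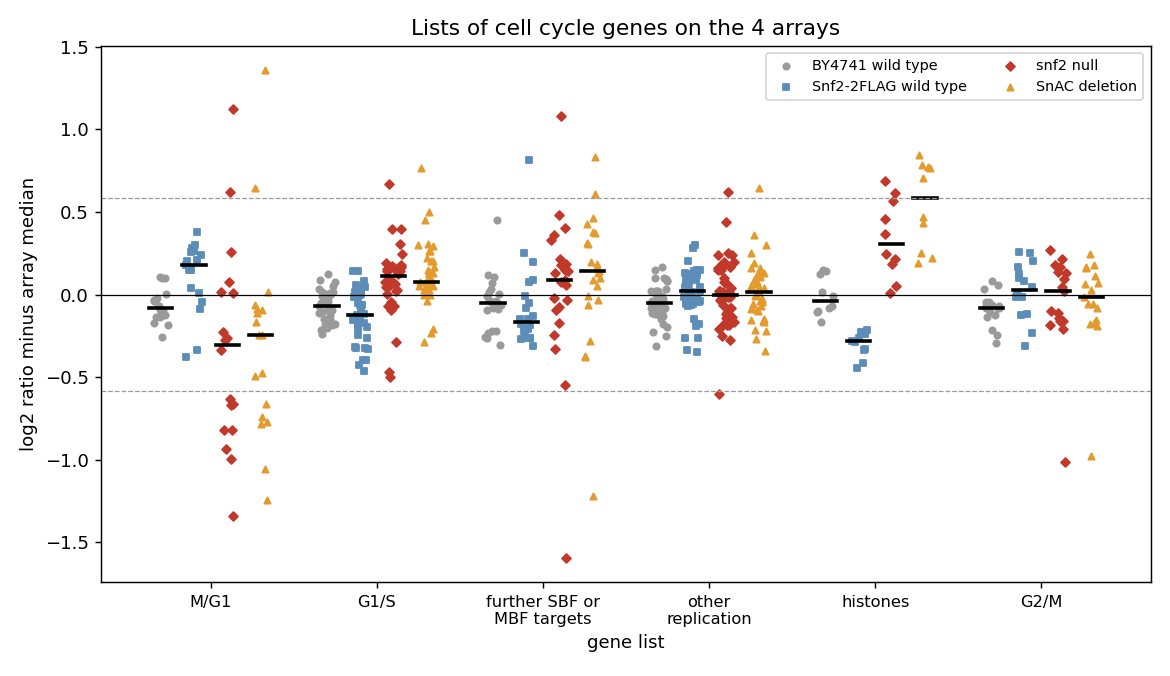
Centred log2 ratio (y axis) of every measured gene in 6 cell cycle lists (x axis) on the 4 arrays, with black bars at the list medians and dashed lines at 1.5-fold. The G1/S medians are -0.07 and -0.12 on the wild-type arrays and 0.11 and 0.08 in the mutants; M/G1 genes lie lower in the mutants, at -0.30 and -0.24, and histone genes higher, at 0.31 and 0.59.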

How the data were processed

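Per the labels' protocols, poly(A) RNA was labelled with Cy3 and Cy5 and each sample names 2 scans of opposite dye orientation. The authors deposited 1 value per probe, read here as a log2 ratio of channel 1 (the named strain) over channel 2 (its wild type). Scanner software, background correction, centring, filters and the use of spike-in transcripts are not given in the sources used here. Of 6226 probes, 5578 had a gene name, 5573 of which matched the R64 gene table used for symbols and neighbours. Probes of a gene were averaged, giving 6195 features, and each array was centred on its median. Members and the 9 other lists were chosen with earlier results of these data known. All members were named; other genes were named where past 2-fold in either mutant, or among the 2 highest or lowest of a list, unless said otherwise. No test was possible with 1 sample per group. Counting was tested on simulated data. Python 3.11.15, numpy 2.4.6, pandas 2.3.3 and matplotlib 3.10.9 were used. Alternatives are given in the closing section. Promoter sequences and motifs were not analysed here.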

Additional observations from a re-analysis of the deposited data

How the results depend on the processing

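With 1 array per group, the number of arrays limits the precision, and the median gap between probes that share a gene was 0.09 to 0.14 log2 on an array. No paired analysis was possible because each group holds 1 sample. Of 38 alternative values for counts and medians, 27 stayed within the set tolerance, which was that probe gap for medians and 1.5 times for counts. As deposited, without centring, the median of the members was -0.19 on the BY4741 array and -0.31 in the SnAC deletion, and the median difference between the mutants turned to 0.38. In the SnAC deletion 0 members were then 1.5-fold higher and 3 lower, CLN2, CLB6 and SVS1, where 0.951% and 16.7% of all features were on the same values. The displaced median of that array accounts for this by construction. In each mutant 1 member, PCL2, passed when the fold was lowered from 2 to 1.5, where 4.28% and 3.12% of all features were higher. By the central 95% of the BY4741 array, 4 members of the null were higher and 2 lower, where 26.3% of all features lay outside. After subtraction of the wild-type array 1 member was 1.5-fold lower in the null, against 6.42% of features. In the SnAC deletion 6 were then 1.5-fold higher, against 7.59%. Centring on a trimmed mean or on named genes, and use of members on all 4 arrays, kept every median of the members within that tolerance. Single probes could not be compared, as each member had 1.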

Other observations

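The S-phase cyclin genes each lie beside a mitotic cyclin gene on the chromosome, in the gene order of the R64 reference. CLB6 neighbours CLB1, and both were low in the null, at -0.50 and -1.01, and in the SnAC deletion, at -0.21 and -0.97. CLB5 neighbours CLB2, and both were above the median, at 0.14 and 0.22 in the snf2 null and at 0.04 and 0.25 in the SnAC deletion. On the other side of CLB5, THI22 read 0.43 in the snf2 null and -0.025 in the SnAC deletion. YGR109W-B, on the other side of CLB6, had no value. The neighbours of PCL2 and SVS1 read closer to the median than these genes or on its other side. Beside PCL2, VCX1 read 0.08 and CDC48 0.17 in the null, and -0.50 and -0.13 in the SnAC deletion. Beside SVS1, MLH3 read 0.35 and 0.24 and YPL162C read -0.05 and -0.15. CYC3, next to CLN3, read 0.50 in the snf2 null and 0.60 in the SnAC deletion, while CDC24 on its other side read 0.18 and 0.002. Neighbours were read only for CLB5, CLB6, PCL2, SVS1 and CLN3, which include the highest and lowest members. Of the 36 members, 0 neighbour each other.

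Genes for loading the replicative helicase were read by complex. MCM2 to MCM7, the helicase core, were all above the array median in both mutants, from 0.10 to 0.44 in the snf2 null and from 0.03 to 0.36 in the SnAC deletion, with MCM7 highest in each. They were also all above it on the Snf2-2FLAG array, from 0.07 to 0.20, and 2 of 6 were on the BY4741 array. Of ORC1 to ORC6, which mark the origins, 5 of 6 were below the median in each mutant, with medians of -0.14 and -0.07. On the BY4741 array 5 of 6 were also below it, with a median of -0.12, and on that of Snf2-2FLAG 2 of 6 were, with a median of 0.07. Over all features 49.9% were above the median on each mutant array and 49.8% on each wild-type array. The MCM and ORC genes were picked out after their values were seen.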
